A study of Mus musculus with 6 samples.

Results

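The 10 genes examined here, typical of mature neutrophils and of their gelatinase (tertiary) granules, were followed in splenic CD11b+Gr-1high cells, a sorted fraction rich in neutrophils. They were Mmp9, Mmp25, Retnlg, Fpr1, Fpr2, Trem1, Trem3, Hdc, Mxd1 and G0s2, and every array probe annotated with one of these symbols or an older alias was taken. Probes were found for 9 of the 10 genes. These 9 genes stood among 12492 tested features and had 13 probes. No probe carried the name of Fpr1 in the annotation used, so this gene was not analysed here.

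RNA was measured on 6 Illumina bead arrays. The 3 groups of 2 arrays were wild-type mice without a tumor, IRF8 KO mice without a tumor, and wild-type mice bearing a tumor grown from AT-3, a transplantable mouse mammary carcinoma line. All mice were of H-2b background, and sorted cells were over 97% pure with an RNA integrity number above 7. The labels describe neither the deleted allele nor the age of the mice nor the count of animals behind an array. They do speak of independent experiments, but leave open if arrays of equal number in different groups share one. The p-values cover the spread between arrays, and how much of it reflects differences between animals is unknown.

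Neutrophils make their granules in sequence as they mature. Proteases and peroxidase of the primary granules are made at the promyelocyte stage, and gelatinase granules, which fuse readily with the surface when a cell migrates, are made late. Late neutrophils also gain receptors that sense bacterial peptides and amplify inflammatory signals, and they express regulators tied to the end of cell division. IRF8 is a transcription factor that favors monocytes and dendritic cells over granulocytes.

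Mean signal per array was 264.7 to 421.3, lowest in the AT-3 group, and the share of probes above the negative controls was 31.0% to 38.4%. Irf8, the targeted gene, was 3.22-fold lower in KO than in wild-type cells (adjusted p = 0.0063), although the place of its probe relative to the deletion is unknown, and 3.19-fold higher in AT-3 cells (adjusted p = 0.00651). Its raw signal was 221.6 and 192.3 in wild type and 127.1 and 156.7 in KO cells. The KO readings lay near the negative controls (detection p of 0.029 and 0.00107), so the size of the fall is loose. Omitting wild-type array 1 ended the KO call, as did no background correction and the authors' log2 values, where the difference of -1.69 shrank to as little as -0.64. Omitting wild-type array 2 ended the AT-3 call, as did no scaling between arrays, where 1.67 became 0.87. All 8 neutrophil-defining markers with a named probe (Ly6g had none) were detected on both arrays of every group. Their summed normalized level was 110000 and 116000 in wild type, 133000 and 138000 in KO cells, and 144000 and 150000 in AT-3 cells. That sum hides opposite movements, since 3 of the 8 were called higher and 2 lower in each comparison with wild type. Itgam, which encodes CD11b, Ngp and Camp were higher (4.16-fold, 2.68-fold and 2.23-fold in KO cells, 3.13-fold, 2.31-fold and 2.09-fold in AT-3 cells). The receptor genes Csf3r and Cxcr2 were lower (4.75-fold and 4.16-fold in KO cells, 4.23-fold and 2.08-fold in AT-3 cells). Levels below are normalized log2 intensities, each probe is compared only with itself, and differences come from limma with a standard error (SE). Adjusted p is the Benjamini-Hochberg value over all 12492 features, and a gene is called at an adjusted p under 0.05. In these bulk samples, fewer cells of a type and less RNA per cell cannot be told apart.

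The genes did not move as a block. In KO cells Fpr2 and Mmp25 were about as much higher as Mxd1 was lower, by 1.98-fold, 1.97-fold and 1.87-fold, and G0s2 was 2.69-fold lower. In AT-3 cells Mmp25 was 2.35-fold higher, Mxd1 2.47-fold lower and G0s2 4.28-fold lower. Between the AT-3 and KO groups, Trem1 and Trem3 were lower in AT-3 cells by 3.04-fold and 1.87-fold. Mmp9, the gelatinase that names the granule, and Retnlg were not called in any comparison under the main setting.

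**Figure D1:**
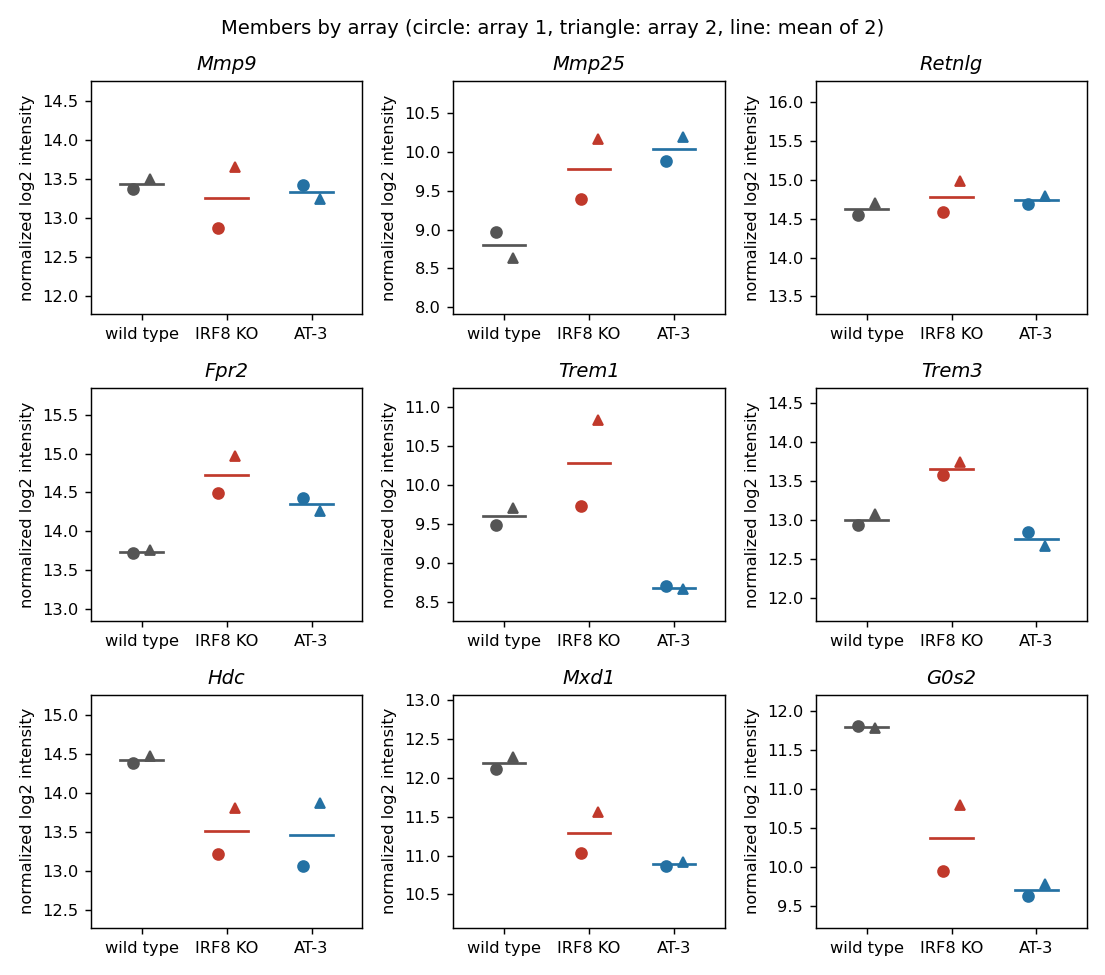
Normalized log2 intensity of each of the 9 measured genes on the 6 arrays, grouped as wild type, IRF8 KO and AT-3, with a circle for array 1, a triangle for array 2 and a line for the mean of 2. Every panel spans the same number of log2 units. G0s2 and Mxd1 lie lower in both altered groups, Mmp25 lies higher, and Mmp9 and Retnlg overlap throughout.

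Setting KO against wild type asked how loss of IRF8 altered this fraction. Of the 9 genes, 2 were called higher and 2 lower, and 5 were not called. The called share was 44.4%, against 31.9% of all features (15.4% higher and 16.5% lower). KO and wild-type arrays did not overlap for 7 of 9 genes, or 77.8%, against 69.2% of all features. The median log2 difference of the 9 genes was 0.16 and that of all features -0.01. All 4 calls were lost when either wild-type array was left out. Without wild-type array 1 their adjusted p was 0.0743 for G0s2, 0.117 for Mxd1, 0.119 for Fpr2 and 0.121 for Mmp25. Without wild-type array 2 it was 0.0746, 0.17, 0.108 and 0.251 in the same order. The number of features called fell at the same time from 3990 to 1673 and 1541.

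The comparison of AT-3 with wild-type cells asked how a mammary tumor altered the same fraction. Of the 9 genes, 1 was called higher, 2 were called lower and 6 were not called. The called share was 33.3%, against 34.9% of all features (17.3% higher and 17.6% lower), so these genes were called about as often as others. Arrays did not overlap for 7 of 9 genes, against 71.9% of all features, and the medians were -0.25 for the 9 genes and -0.01 for all features. This comparison uses the same wild-type arrays as the first, so the results of both are not independent.

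The direct comparison of AT-3 with KO cells called 0 of the 9 genes higher and 2 lower in limma, while 7 were not called. The called share was 22.2%, against 11.5% of all features (6.16% higher and 5.34% lower). Arrays did not overlap for 5 of 9 genes, or 55.6%, against 54.6% of all features. The medians were -0.38 and -0.02. At an unadjusted p under 0.05 the counts were the same, 0 higher and 2 lower.

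**Figure D2:**
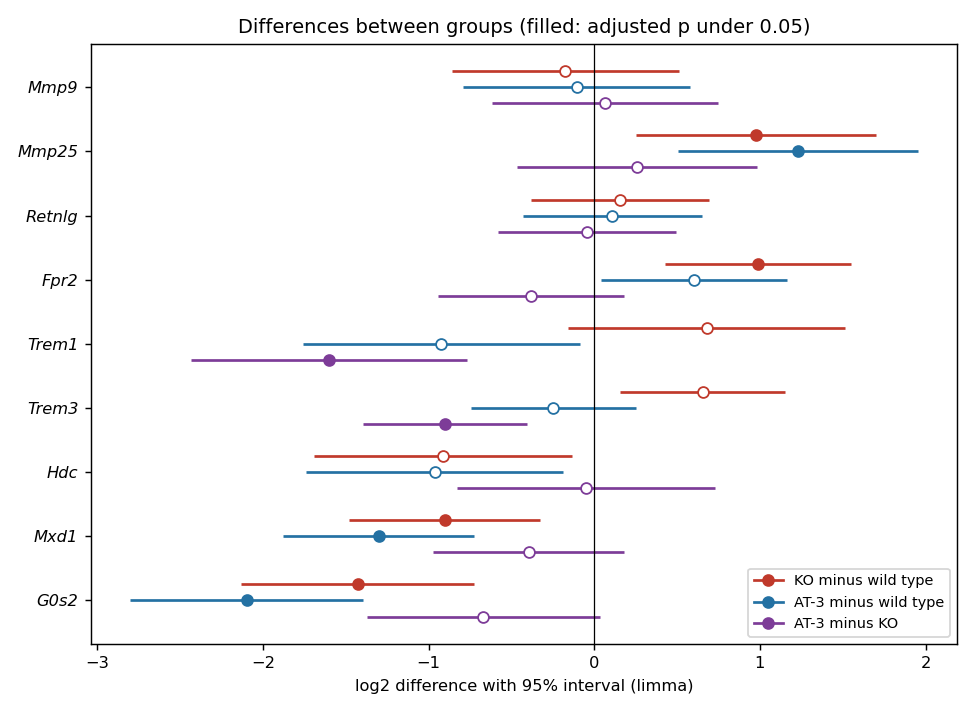
Log2 difference of each gene with its 95% interval from limma, for each pair of groups. Filled points have an adjusted p under 0.05. Intervals of Mmp9 and Retnlg cross 0 in every comparison, and those of G0s2 and Mxd1 lie below 0 against wild type.

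Mmp9 encodes gelatinase B, a secreted protease that cleaves denatured collagens. Its log2 intensity was 13.37 and 13.50 in wild type, 12.87 and 13.65 in KO cells, and 13.42 and 13.24 in AT-3 cells. The KO arrays were the lowest and the highest of all 6, and the groups overlapped. The difference was -0.17 in KO cells (95% interval -0.86 to 0.51, adjusted p = 0.695) and -0.11 in AT-3 cells (-0.79 to 0.58, adjusted p = 0.807).

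Mmp25 encodes leukolysin, a membrane-anchored metalloproteinase that neutrophils keep in their granules. It read 8.97 and 8.63 in wild type, 9.39 and 10.17 in KO cells, and 9.88 and 10.19 in AT-3 cells. All 4 arrays of the altered groups lay above both wild-type arrays. The rise was 0.98 in KO cells (SE 0.31, 1.97-fold, adjusted p = 0.0482) and 1.23 in AT-3 cells (SE 0.31, 2.35-fold, adjusted p = 0.0201). AT-3 and KO cells overlapped, with a difference of 0.26 (95% interval -0.47 to 0.98, adjusted p = 0.641). The KO call held under 7 of 18 alternatives. Besides either wild-type array, it was lost without KO array 2, where the difference was 0.58 (adjusted p = 0.151), and without either AT-3 array (adjusted p = 0.0666). The AT-3 call was lost without either wild-type or either AT-3 array (adjusted p of 0.0562 to 0.136), and with no scaling between arrays the difference was 0.20 (adjusted p = 0.648).

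Around these proteases, 9 of 18 listed metalloproteinases and inhibitors could be tested. In KO cells 1 was higher and 3 lower, in AT-3 cells 2 were higher and 0 lower by limma (0 lower also at an unadjusted p under 0.05), and 1 was higher in AT-3 than in KO cells. Over all features the shares were 15.4% higher and 16.5% lower in KO cells and 17.3% and 17.6% in AT-3 cells. Between AT-3 and KO cells 6.16% of all features were higher. Over all alternatives the number lower was 0 to 4 in KO and 0 to 3 in AT-3 cells, and the number higher in AT-3 cells was 0 to 3, so these counts are not firm. Reck, a membrane-anchored inhibitor of metalloproteinases, was 5.08-fold higher in KO cells (adjusted p = 0.00182) and 2.73-fold higher in AT-3 cells (adjusted p = 0.011). The AT-3 call was lost without either wild-type array or AT-3 array 1, and with no scaling, at 0.59. Mmp8, the neutrophil collagenase of the secondary granules, was 3.25-fold higher in AT-3 cells (adjusted p = 0.0272), a call that 8 of 18 alternatives lost, among them the omission of any wild-type or AT-3 array, with a difference as low as 0.85 against 1.70. Adam17, a sheddase, was 2.24-fold lower in KO cells (adjusted p = 0.0101), and Mmp13, a collagenase, was 1.93-fold lower there (adjusted p = 0.0373). The Adam17 call was lost without either wild-type array. The Mmp13 call was lost in 9 of 17 alternatives, among them the replicate block and the omission of any wild-type or KO array, and its difference of -0.95 shrank to as little as -0.28. Adam9 was 1.72-fold lower in KO than in wild-type cells (adjusted p = 0.031) and 2.70-fold higher in AT-3 than in KO cells (adjusted p = 0.00871). Both Adam9 and Mmp13 read near the negative controls in KO cells, so the size of their folds there is loose. On KO array 2 neither was detected (detection p of 0.073 and 0.138). The KO call of Adam9 was lost in 8 of 17 alternatives, among them the omission of either wild-type array or KO array 2, with a difference as small as -0.23 against -0.78, and its call between AT-3 and KO cells needed AT-3 array 2. Timp1, an inhibitor that binds Mmp9, was not detected on either KO array and was not called (adjusted p = 0.293 in KO and 0.79 in AT-3 cells). The list medians were -0.63 in KO and 0.14 in AT-3 cells.

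Retnlg encodes a secreted resistin-like protein made by mouse neutrophils. Its log2 intensity was 14.55 and 14.70 in wild type, 14.58 and 14.99 in KO cells, and 14.69 and 14.79 in AT-3 cells. All groups overlapped, and the spread over the 6 arrays was the smallest among the 9 genes. The 95% interval of the difference was -0.38 to 0.69 for KO cells (adjusted p = 0.653) and -0.43 to 0.65 for AT-3 cells (adjusted p = 0.744). Raw signal reached 35056.5 on KO array 2, where the brightest probe of the array read 41564.0, and whether so bright a probe still responds in full was not tested. Retnlb, the only other resistin gene of the 4 listed that could be tested, was not called (adjusted p = 0.71 in KO cells and 0.364 in AT-3 cells).

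Fpr2, listed on older platforms as Fpr-rs2, encodes a formyl peptide receptor that guides neutrophils toward bacterial and mitochondrial peptides. It gave 13.72 and 13.76 in wild type, 14.49 and 14.97 in KO cells, and 14.43 and 14.26 in AT-3 cells. Wild type was lowest without overlap, KO was highest, and the AT-3 arrays lay just below the lower KO array. Fpr2 rose in KO cells by 0.99 (SE 0.24, 1.98-fold, adjusted p = 0.0191). On KO array 2 its raw signal reached 34485.7, where the brightest probe read 41564.0. As for Retnlg, whether so bright a probe still responds in full was not tested. In AT-3 cells the difference was 0.60 (95% interval 0.04 to 1.17, adjusted p = 0.0899), which was not called, and AT-3 minus KO was -0.38 (-0.94 to 0.18, adjusted p = 0.343). The KO rise was also lost when the median of detected probes was set equal between arrays, at 0.55 (adjusted p = 0.137).

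Of 12 listed formyl peptide receptor and signalling genes, 6 could be tested. In KO cells 1 was higher, in AT-3 cells 1 was higher and 1 lower, and between AT-3 and KO cells 0 were called by limma (2 had an unadjusted p under 0.05, both lower in AT-3). Beside these counts, 15.4% of all features were higher in KO cells, and 17.3% were higher and 17.6% lower in AT-3 cells. The gene that rose was Anxa1, which encodes annexin A1, a protein whose fragments bind formyl peptide receptors. It was 4.09-fold higher in KO cells (adjusted p = 0.00134) and 2.77-fold higher in AT-3 cells (adjusted p = 0.0046). Pik3cg, a lipid kinase that acts downstream of chemoattractant receptors, was 2.21-fold lower in AT-3 cells (adjusted p = 0.00838) and had a difference of -0.55 in KO cells (adjusted p = 0.103). The AT-3 calls were lost with no scaling for Anxa1, at 0.40, and without either wild-type array for Pik3cg.

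Trem1 encodes a surface receptor that amplifies inflammatory signals through the adaptor Tyrobp. Its brighter probe (ILMN_2871945) read 9.49 and 9.71 in wild type, 9.73 and 10.84 in KO cells, and 8.70 and 8.66 in AT-3 cells. The AT-3 arrays were lowest, and KO array 1 stood only just above the wild-type arrays. Trem1 was lower in AT-3 than in KO cells by 1.60 (SE 0.36, 3.04-fold, adjusted p = 0.0324). The differences from wild type were 0.68 in KO cells (adjusted p = 0.191) and -0.92 in AT-3 cells (adjusted p = 0.0831), neither called. Leaving out KO array 1 gave a difference of 1.23 in KO cells (adjusted p = 0.0178), and leaving out KO array 2 gave 0.12 (adjusted p = 0.709). The call between AT-3 and KO cells was lost without wild-type array 1 or 2 (adjusted p = 0.0755), KO array 2 (-1.05, adjusted p = 0.0508), AT-3 array 1 (adjusted p = 0.105) or AT-3 array 2 (adjusted p = 0.137).

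The second Trem1 probe (ILMN_2428545) gave 6.88 and 6.65 in wild type, 7.88 and 8.23 in KO cells, and 7.09 and 7.29 in AT-3 cells. It placed AT-3 above wild type, the opposite order to the brighter probe. Tested as its own feature, it was 2.44-fold higher in KO cells (1.29, SE 0.24, adjusted p = 0.00637), with 0.43 in AT-3 cells (adjusted p = 0.21) and -0.86 for AT-3 minus KO (adjusted p = 0.0596). Both probes put KO above AT-3 without overlap, and they disagree on the place of wild type. Averaging the 2 probes gave 0.98 in KO cells (adjusted p = 0.0297), -0.25 in AT-3 cells (adjusted p = 0.514) and -1.23 between them (adjusted p = 0.0297).

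Trem3, the neighbor of Trem1 among the protein-coding genes of RefSeq's GRCm38.p6 annotation, encodes an activating receptor of mouse myeloid cells. It gave 12.93 and 13.08 in wild type, 13.58 and 13.74 in KO cells, and 12.85 and 12.66 in AT-3 cells. The 3 groups did not overlap, with KO highest and AT-3 lowest. Trem3 was lower in AT-3 than in KO cells by 0.90 (SE 0.21, 1.87-fold, adjusted p = 0.0383). In KO cells the difference from wild type was 0.66 (SE 0.21, adjusted p = 0.0519), just past the threshold, and 7 of 18 alternatives called it. In AT-3 cells it was -0.25 (95% interval -0.74 to 0.25, adjusted p = 0.406). The call between AT-3 and KO cells was lost without wild-type array 1 or 2 (adjusted p = 0.101), KO array 2 (0.0857), AT-3 array 1 (0.0783) or AT-3 array 2 (0.15). With medians of detected probes set equal it was -0.47 (adjusted p = 0.144), and with the replicate number as a block its adjusted p was 0.0595.

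Among 9 listed TREM family members and adaptors, 8 could be tested. In KO cells 0 were higher by limma (0 also at an unadjusted p under 0.05) and 4 lower, in AT-3 cells 1 was higher and 2 lower, and 1 was higher in AT-3 than in KO cells. Shares over all features were 17.3% higher and 17.6% lower in AT-3 cells, and 6.16% higher in AT-3 than in KO cells. The 4 lower in KO cells stand beside 16.5% of all features, and they became 2 without KO array 1 and as few as 0 when another array was left out. Tyrobp, the adaptor through which TREM receptors signal, was 1.88-fold lower in KO cells (adjusted p = 0.0252) and 1.78-fold lower in AT-3 cells (adjusted p = 0.0326). Both calls were lost without either wild-type array, the KO call also without KO array 1 and the AT-3 call without either AT-3 array. Treml4, a TREM-like receptor, was 3.93-fold lower in KO (adjusted p = 0.0163) and 7.38-fold lower in AT-3 cells (adjusted p = 0.00408). Its KO call was lost without either wild-type array or KO array 1, with a difference of -2.68 to -1.28 over the leave-one-out fits. Trem2, a receptor of macrophages, was at least 2.12-fold lower in KO than in wild-type cells (adjusted p = 0.00496) and 9.49-fold higher in AT-3 than in wild-type cells (adjusted p = 0.000449), which placed AT-3 at least 20.1-fold above KO (adjusted p = 0.000139). The KO call of Trem2 was lost without wild-type array 2. Here and below, "at least" marks a probe not detected on either array of the dimmer group, whose mean was set at the higher of its own signal and the lowest detected signal on each array. Markers of monocytes and macrophages differed between the groups as well. Their summed normalized level over 12 tested genes was 14400 and 12300 in wild type, 911 and 794 in KO cells, and 5380 and 7130 in AT-3 cells. All 12 were called lower in KO cells. In AT-3 cells 10 were called lower, among them C1qc (48.8-fold), Vcam1 (45.4-fold) and C1qb (31.2-fold), while Ccr2 (11.4-fold) and Ms4a6d (11.2-fold) were higher, so the AT-3 sum hides opposite movements. All 12 were detected on both wild-type arrays, 5 on both KO arrays and 8 on both AT-3 arrays, and their part in these results was not tested.

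Hdc encodes histidine decarboxylase, which makes histamine. Its brighter probe (ILMN_2965903) read 14.38 and 14.47 in wild type, 13.21 and 13.81 in KO cells, and 13.06 and 13.87 in AT-3 cells. Both altered groups lay below wild type, and each of their pairs of arrays was farther apart than the wild-type pair. The differences were -0.91 in KO cells (SE 0.33, 95% interval -1.69 to -0.14, adjusted p = 0.0737) and -0.96 in AT-3 cells (-1.74 to -0.19, adjusted p = 0.0586), and neither was called. In each of these comparisons 6 of 18 alternatives called it. Without AT-3 array 1 the difference in AT-3 cells was -0.56 (adjusted p = 0.258), and without AT-3 array 2 it was -1.37 (adjusted p = 0.0321). The second probe (ILMN_1256122) gave 12.76 and 12.44, 11.16 and 11.86, and 10.81 and 12.10 in the same order of groups. It showed the same order and was not called, with -1.09 in KO (adjusted p = 0.0999) and -1.15 in AT-3 cells (adjusted p = 0.0826).

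Histamine is best known from basophils and mast cells, so their markers were read beside Hdc. None of 11 basophil and mast cell genes, Cpa3 and Mcpt8 among them, had a probe that passed the detection filter. Of 102 readings from their 17 probes, 5 were above the negative controls. Of 6 listed genes of histamine breakdown, transport and reception, only the receptor gene Hrh2 could be tested, and it was 3.28-fold lower in KO (adjusted p = 0.00477) and 2.98-fold lower in AT-3 cells (adjusted p = 0.00662). With its probes averaged both calls were lost, at -0.76 in KO cells (adjusted p = 0.0619) and -0.77 in AT-3 cells (adjusted p = 0.0558), so the size rests on the brightest probe. The AT-3 call was also lost without either wild-type array.

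Mxd1 encodes a partner of Max that opposes Myc at its target genes and rises as myeloid cells leave the cell cycle. Its brightest probe (ILMN_1232668) read 12.12 and 12.27 in wild type, 11.03 and 11.56 in KO cells, and 10.87 and 10.92 in AT-3 cells. The 3 groups did not overlap, with wild type highest and AT-3 lowest. Mxd1 fell in KO cells by 0.90 (SE 0.25, 1.87-fold, adjusted p = 0.0289) and fell by 1.30 in AT-3 cells (SE 0.25, 2.47-fold, adjusted p = 0.00729). AT-3 minus KO was -0.40 (95% interval -0.97 to 0.18, adjusted p = 0.336). Besides either wild-type array, the KO call was lost without KO array 1, at -0.64 (adjusted p = 0.0889). The AT-3 call was lost in 1 of 18 alternatives, without wild-type array 2 (-1.23, adjusted p = 0.0671).

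The other 2 Mxd1 probes were dimmer. ILMN_2428206 gave 6.14 and 6.29 in wild type and 4.81 and 5.25 in KO cells, and on the AT-3 arrays it was not detected (detection p of 0.667 and 0.297). As its own feature it was 2.28-fold lower in KO cells (adjusted p = 0.00934). ILMN_1224997 gave 8.53 and 8.05 in wild type, 7.89 and 8.24 in KO cells, and 6.89 and 7.16 in AT-3 cells. Here wild type and KO overlapped (-0.23, adjusted p = 0.566), while AT-3 lay 2.40-fold below wild type (adjusted p = 0.0107) and 2.05-fold below KO (adjusted p = 0.0499). All 3 probes had AT-3 below wild type without overlap, and they differed on KO cells.

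**Figure D3:**
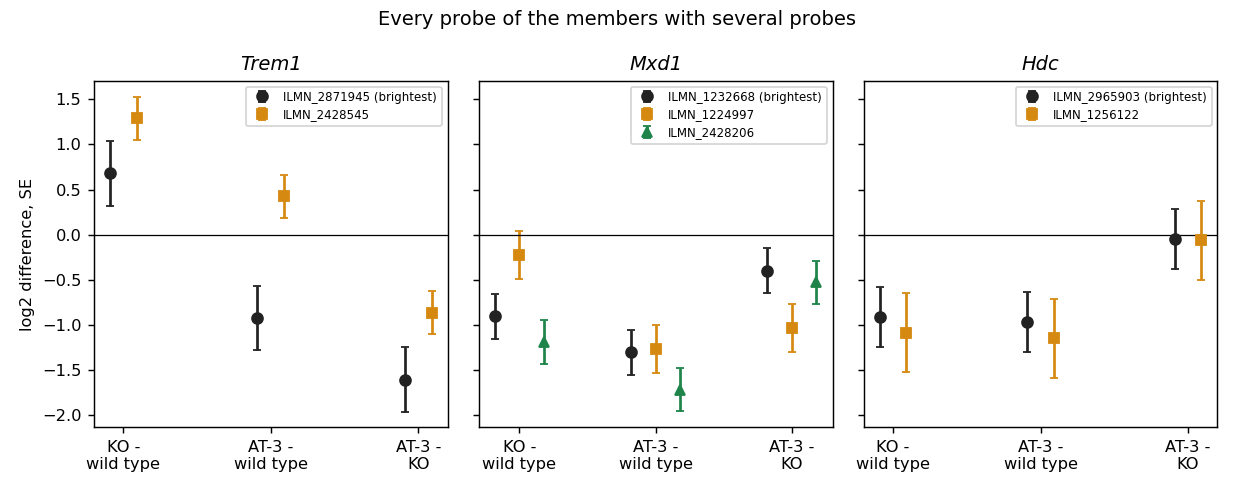
Log2 difference with its SE for every probe of Trem1, Mxd1 and Hdc, with each probe tested as its own feature, in the 3 comparisons. The 2 Trem1 probes lie on opposite sides of 0 for AT-3 minus wild type, the 3 Mxd1 probes are all below 0 there, and the 2 Hdc probes lie close together throughout.

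In the network of Max partners, 9 of 12 listed genes could be tested, and Myc was not among them because neither of its 2 probes passed the detection filter. In KO cells 2 were higher and 2 lower, in AT-3 cells 1 was higher and 2 lower, and 1 was higher in AT-3 than in KO cells. Shares over all features were 15.4% higher and 16.5% lower in KO cells and 17.3% and 17.6% in AT-3 cells. Between AT-3 and KO cells 6.16% of all features were higher. Over the leave-one-out fits, 0 to 2 were lower in each comparison with wild type. Mxd3, a relative of Mxd1 found in dividing cells, was at least 2.58-fold higher in KO (adjusted p = 0.00174) and at least 3.65-fold higher in AT-3 cells (adjusted p = 0.00106). Max itself was 3.05-fold higher in KO cells (adjusted p = 0.0123), with 0.92 in AT-3 cells (adjusted p = 0.0789), and omitting wild-type array 2 or KO array 2 ended the KO call. Mnt, a further antagonist of Myc, was 2.52-fold lower in KO (adjusted p = 0.0244) and 2.46-fold lower in AT-3 cells (adjusted p = 0.0247), and each of these calls held in 10 of 17 alternatives. They were lost without either wild-type array, and without either KO array or without AT-3 array 1 respectively. Mnt read near the negative controls in both altered groups. It was not detected on KO array 1 or AT-3 array 1 (detection p of 0.079 and 0.607). Mlxip, a glucose-sensing partner of Mlx, was 1.90-fold lower in KO (adjusted p = 0.0371) and 1.82-fold lower in AT-3 cells (adjusted p = 0.0442), and its relative Mlxipl was 2.00-fold higher in AT-3 than in KO cells (adjusted p = 0.0357). The Mlxip calls each held in 13 of 18 alternatives and were lost without either wild-type array, the KO call also without KO array 1 and the other without either AT-3 array. The Mlxipl call held in 6 of 18 and was lost when any of the 6 arrays was left out.

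G0s2 encodes an inhibitor of the lipase Pnpla2, the enzyme that starts the breakdown of stored fat. It had the largest difference from wild type of the 9 genes in both altered groups. The log2 intensity was 11.81 and 11.79 in wild type, 9.95 and 10.79 in KO cells, and 9.62 and 9.78 in AT-3 cells. The raw signal was 4480.3 and 4265.3, then 1383.9 and 2353.5, then 551.2 and 544.1. The wild-type arrays were nearly equal, all 4 other arrays were lower, and the groups did not overlap. G0s2 fell by 1.43 in KO cells (SE 0.30, 95% interval -2.13 to -0.73, adjusted p = 0.0111) and fell by 2.10 in AT-3 cells (SE 0.30, -2.80 to -1.40, adjusted p = 0.00283). The call in AT-3 cells held in all 18 alternatives, with an adjusted p of 0.000157 to 0.0308. AT-3 minus KO was -0.67 (-1.37 to 0.03, adjusted p = 0.196), and without KO array 1 it was -1.09 (adjusted p = 0.0337).

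Around G0s2, 6 of 8 listed lipolysis genes could be tested. In KO cells 2 were higher and 1 lower, in AT-3 cells 2 were higher and 3 lower, and between AT-3 and KO cells 2 were lower in AT-3. Over all features the shares were 15.4% higher and 16.5% lower in KO cells and 17.3% and 17.6% in AT-3 cells. Between AT-3 and KO cells 5.34% of all features were lower. Over the leave-one-out fits, 0 to 2 were higher and 1 to 3 lower in AT-3 than in wild-type cells. Pnpla2, the lipase that G0s2 inhibits, was 4.41-fold lower in KO (adjusted p = 0.00116) and 3.84-fold lower in AT-3 cells (adjusted p = 0.00189). Abhd5, the activator of the same lipase, was 7.14-fold higher in KO cells (adjusted p = 0.000838) and 2.21-fold higher in AT-3 cells (adjusted p = 0.0208), which placed AT-3 below KO by 3.23-fold (adjusted p = 0.0136). Plin3, a lipid droplet coat protein, was 2.95-fold higher in KO (adjusted p = 0.00327) and 2.58-fold higher in AT-3 cells (adjusted p = 0.00537). Mgll, which completes the breakdown, was 3.72-fold lower in AT-3 than in wild-type cells (adjusted p = 0.00859) and 4.70-fold lower than in KO cells (adjusted p = 0.0129). The AT-3 call of Abhd5 was lost without either wild-type array or AT-3 array 1 and with no scaling (0.23), that of Plin3 without wild-type array 1 and with no scaling (0.52), and that of Mgll without either wild-type array or AT-3 array 1. Between AT-3 and KO cells, the Abhd5 call was lost without AT-3 array 2 and the Mgll call without either AT-3 array. G0s2 and the lipase it inhibits were both lower against wild type, and the activator was higher.

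The promoters of the gene that fell most in both groups, the gene that rose in both and the receptor gene that rose in KO cells are shown from RefSeq (GRCm38.p6), as the 250 bases before the annotated start, 5′ to 3′ on the gene's strand. They were read for letter patterns bound by IRF and STAT factors, and capitals mark matches on either strand to GGAANNGAA, GAAANNGAA or TTCNNNGAA. The windows are chr1:193273189-193273438 on the minus strand for G0s2, chr17:23645270-23645519 on the minus strand for Mmp25 and chr17:17887574-17887823 on the plus strand for Fpr2.
G0s2: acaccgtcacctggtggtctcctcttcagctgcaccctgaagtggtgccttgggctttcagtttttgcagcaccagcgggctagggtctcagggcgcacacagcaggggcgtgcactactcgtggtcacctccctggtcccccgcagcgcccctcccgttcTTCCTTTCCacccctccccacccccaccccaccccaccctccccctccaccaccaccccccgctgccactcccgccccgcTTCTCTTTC
Mmp25: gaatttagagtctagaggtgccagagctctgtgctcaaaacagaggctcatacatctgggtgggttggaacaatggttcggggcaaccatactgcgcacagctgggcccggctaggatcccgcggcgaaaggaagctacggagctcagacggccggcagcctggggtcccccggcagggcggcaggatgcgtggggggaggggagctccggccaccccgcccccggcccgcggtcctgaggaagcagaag
Fpr2: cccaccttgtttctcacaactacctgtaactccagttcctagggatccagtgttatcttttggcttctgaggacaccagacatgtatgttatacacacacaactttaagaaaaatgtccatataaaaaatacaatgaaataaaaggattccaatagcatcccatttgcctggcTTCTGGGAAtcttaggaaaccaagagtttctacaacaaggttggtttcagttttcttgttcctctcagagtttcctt
The G0s2 window holds 2 marked stretches. One match to GGAANNGAA starts 89 bases before the annotated start, and one to GAAANNGAA ends at it. Fpr2 holds 1 match to TTCNNNGAA, 77 bases before the start, and Mmp25 holds none of the 3 patterns. Of 32851 promoters in the table, 6.99% hold GGAANNGAA, 7.13% hold GAAANNGAA and 7.02% hold TTCNNNGAA. Promoters were found for 8 of the 10 genes, all but Mmp9 and Trem3. None of these 8 held GAGGAAGT (2.44% of all promoters), CACGTG (6.02%) or TGANTCA (6.75%), and only Retnlg held TTGCNNAA (9.56%). Trem1 also held TTCNNNGAA, so 2 of 8 did. GC content was 67.2% in the G0s2 window, 66.0% in that of Mmp25 and 38.8% in that of Fpr2. A match is a description of the letters and shows no binding.

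The KO arrays differed in the same direction for all of these genes. KO array 2 was above KO array 1 for 9 of 9 genes and for all their 13 probes, by a median of 0.60 and by 0.16 to 1.11. All features had a median gap of 0.04, in which gaps of opposite sign offset each other. With signs dropped, the median gap was 0.60 for these genes and 0.31 for all features in KO cells. It was 0.15 and 0.18 in wild type, and 0.17 and 0.265 in AT-3 cells. The share of all features that were higher on KO array 2 was not counted. The gap was 1.11 for Trem1, 0.85 for G0s2 and 0.78 for both Mmp9 and Mmp25. Among the wild-type arrays, array 2 was the higher for 7 of 9 genes with a median gap of 0.13, and among the AT-3 arrays for 5 of 9 with a median of 0.05. The largest gap outside KO cells was 0.81, for Hdc between the AT-3 arrays. Markers of promyelocytes (Mpo, Elane, Prtn3, Ctsg and Ms4a3) differed between the KO arrays the other way, with a summed normalized level of 47200 on KO array 1 and 3980 on KO array 2. Their sum was 242 and 222 in wild type and 6980 and 10400 in AT-3 cells, and 1 of 5 was detected on both wild-type arrays against 5 of 5 in the other groups. The part of these markers in the values of the 9 genes was not tested. Markers of erythroid cells had sums of 319 and 265, 587 and 276, and 13700 and 4040 in wild-type, KO and AT-3 cells, and their part was not tested either.

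**Figure D4:**
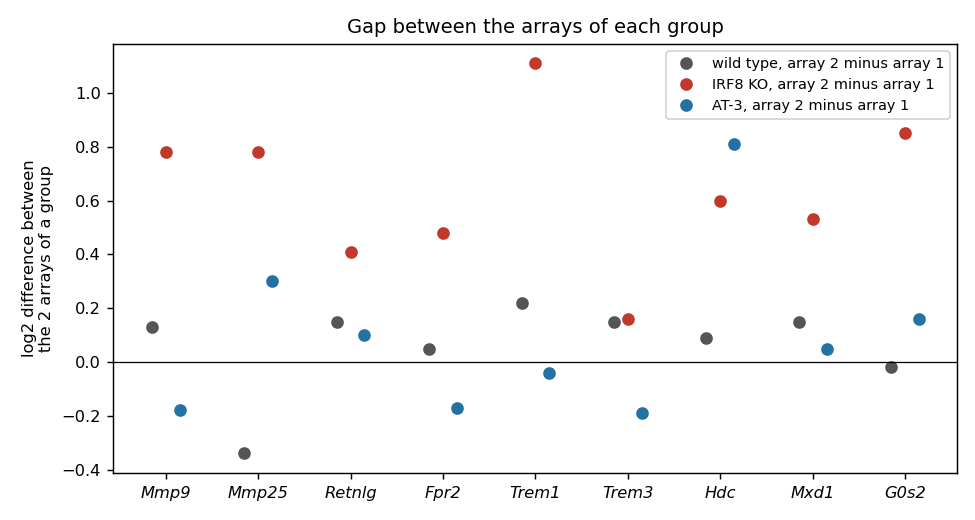
Log2 difference between the 2 arrays of each group (array 2 minus array 1) for the 9 genes. The gap in KO cells is above 0 for every gene, from 0.16 for Trem3 to 1.11 for Trem1, while wild-type and AT-3 gaps lie on both sides of 0.

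The AT-3 arrays had the lowest mean signal, though not the lowest median, and the scaling between arrays was varied. Setting the median of detected probes equal moved the median difference of all features by -0.16 between KO and wild type, 0.40 between AT-3 and wild type and 0.41 between AT-3 and KO. No scaling moved it by 0.21, -0.43 and -0.80. The share of calls that were higher was 48.2%, 49.5% and 53.6% in the main setting, 40.1%, 66.6% and 85.6% with equal medians, and 64.6%, 13.1% and 4.81% with no scaling. G0s2 and Mxd1 were called lower against wild type under all 3 scalings, and with no scaling their differences in AT-3 cells grew to -3.26 (adjusted p = 0.000157) and -2.43 (adjusted p = 0.000234). Also with no scaling, AT-3 minus KO was -2.79 for Trem1 (adjusted p = 0.00082) and -1.68 for Trem3 (adjusted p = 0.00113). Between AT-3 and KO cells, Retnlg was called higher with equal medians (0.90, adjusted p = 0.0295) and Mmp25 was called lower with no scaling (-1.02, adjusted p = 0.0227). Relative to the median of all features, Mmp25 differed by 1.24 in AT-3 minus wild type under quantile normalization. It differed by 0.64 under both equal medians and no scaling. These settings differ only by a constant per array, so their values relative to the median are equal by construction.

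**Figure D5:**
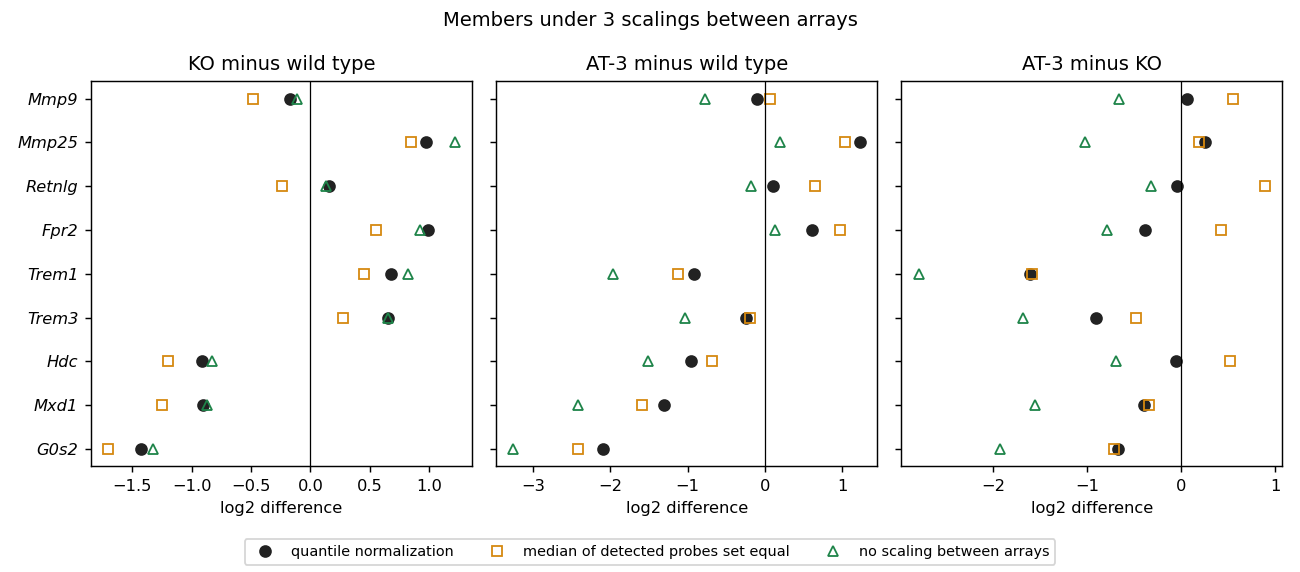
Log2 difference of each gene under 3 scalings between arrays, for the 3 comparisons. Quantile normalization (the main setting), equal medians of detected probes and no scaling lie closer together for KO minus wild type than for the comparisons with AT-3. G0s2 and Mxd1 stay below 0 throughout. Between AT-3 and KO cells, Mmp9, Mmp25, Retnlg, Fpr2 and Hdc lie on both sides of 0, and Retnlg does so in all 3 comparisons.

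The patterns of the 9 genes over the 6 arrays were compared by the Euclidean distance between log2 values centred on each gene's mean, as a description. Mmp9 and Retnlg were closest to each other (0.47), followed by Hdc and Mxd1 (0.67) and by Mxd1 and G0s2 (0.85). Mmp25 and G0s2 were farthest apart (3.45). Outside the 9 genes, the named gene nearest to G0s2 was Dusp6 (distance 0.17), a phosphatase of MAP kinases that was 4.50-fold lower in AT-3 cells. The nearest was Lbh for Mxd1 (0.17), Kmt2b for Hdc (0.24), Ceacam10 for Mmp25 (0.18), Mtmr3 for Fpr2 (0.18), Klhl17 for Trem3 (0.16), Wsb1 for Trem1 (0.27), Gpr107 for Mmp9 (0.19) and Gm12657 for Retnlg (0.14). All distances rest on the same 6 arrays, and each named gene is the nearest of all named genes tested.

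Of 40 further genes of mature neutrophils and gelatinase granules, 36 could be tested. In KO cells 5 were higher, 20 lower and 11 not called, with a median of -1.21. In AT-3 cells 5 were higher, 18 lower and 13 not called, with a median of -0.97. Between AT-3 and KO cells 3 were higher and 3 lower, with a median of 0.16. Without KO array 1 the KO counts were 5 and 14, and over the leave-one-out fits they ranged from 3 to 5 higher and from 12 to 20 lower. Over all alternatives 10 to 24 were lower in AT-3 cells. Of all features, 15.4% were higher and 16.5% lower in KO cells, and 17.3% were higher and 17.6% lower in AT-3 cells. The list was chosen with earlier results of these data known, so these counts are a description and no test. Cd177, a surface protein that marks part of the neutrophils, was 6.29-fold higher in KO (adjusted p = 0.000387) and 4.67-fold higher in AT-3 cells (adjusted p = 0.000781). Wfdc21, a small secreted protein, was 4.12-fold higher in KO (adjusted p = 0.00251) and 3.72-fold higher in AT-3 cells (adjusted p = 0.00358). Ifitm6 was 3.2-fold higher in KO (adjusted p = 0.00245) and 4.59-fold higher in AT-3 cells (adjusted p = 0.00127). Cd300ld, a myeloid surface receptor, was 19.4-fold lower in KO cells (adjusted p = 0.00147). Stfa2l1, a stefin of mouse neutrophils, was 11.3-fold lower in KO (adjusted p = 0.000353) and 8.51-fold higher in AT-3 than in KO cells (adjusted p = 0.000684). Cxcl2, a chemokine that draws neutrophils, was 45.6-fold lower in AT-3 than in wild-type cells (adjusted p = 0.00279) and 62.2-fold lower than in KO cells (adjusted p = 0.0052), and Hcar2, a receptor for niacin and ketone bodies, was 35.8-fold lower than in wild type (adjusted p = 0.00555). The size of these falls is loose, since leaving out 1 array gave log2 differences of -6.29 to -4.73 for Cxcl2 against wild type, -7.04 to -4.88 for Cxcl2 against KO cells and -6.25 to -4.07 for Hcar2 against wild type. Il1r2, the decoy receptor for interleukin-1, was 1.94-fold lower in KO cells (adjusted p = 0.0474) and 2.83-fold higher in AT-3 than in KO cells (adjusted p = 0.0231). The KO call of Il1r2 was lost in 9 of 18 alternatives, among them the replicate block and the omission of either wild-type array, KO array 1 or either AT-3 array, with -1.35 to -0.57 over the leave-one-out fits. The call between AT-3 and KO cells was lost without either wild-type or either AT-3 array.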

How the data were processed

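Per the file headers, the deposited table holds a signal intensity per probe and array with a detection p-value beside it, and the series matrix holds log2 values as deposited by the authors. Per the submitters' processing notes GenomeStudio was used, and its background setting is not given in the sources used here. Set against the intensities, the authors' log2 values were quantile-normalized with no background correction (largest gap 0.0842, array medians 6.91 or 6.92) and served as an alternative. Intensities were normalized with neqc (normexp from detection p-values, offset 16, quantile) in limma 3.58.1 (R 4.3.3). The filter kept 17631 of 45281 probes, those detected at p under 0.05 on 2 or more of 6 arrays. Each gene was represented by its brightest probe, giving 12492 features (9548 named genes, 2944 unnamed probes). Symbols came from the platform annotation, updated by Entrez identifier (34807 probes) or accession (11), with 67 kept. In all, 34885 probes had 1 symbol, 18 several and 10378 none.

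A mean per group was fitted by lmFit and eBayes (3 residual and 4.29 prior degrees of freedom, median SE 0.256), and the fit was tested on simulated data. The number of arrays limits the precision. With 2 arrays a group an exact permutation test cannot pass 0.05, so none was run. Alternatives were other background corrections, scalings, filters and probe rules, a fit of only the arrays compared, a trended robust prior, a block for the replicate number, and each array left out in turn, where a lone array was taken to vary as much as the other groups.

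The genes, the gene lists and the alternatives were chosen with earlier results of these data known. Named genes are all members, up to 2 called higher and 2 lower per list and comparison, genes with a direct role beside a member, Irf8 and each member's nearest gene. Array replicates were taken from the numbers in the sample titles.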

Additional observations from a re-analysis of the deposited data

How the results depend on the processing

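Over 18 alternatives and 27 differences of the 9 genes (486 values), 404 stayed on their side of the threshold, 41 calls were lost and 39 were gained. The 404 include differences called in neither setting that changed sign. For example, AT-3 minus KO of Fpr2 was -0.382 in the main setting and 0.423 with equal medians. A further 2 were reversed, called only in the alternative and with the opposite sign. The 2 were AT-3 minus KO for Retnlg with equal medians (0.895, where the median of all features was 0.385) and Mmp25 with no scaling (-1.016, where it was -0.825). Of 2079 values of the other named genes, 1827 stayed on their side of the threshold, again with uncalled changes of sign included. Of the rest, 189 calls were lost, 58 gained and 5 reversed. KO calls held throughout for Cd177, Wfdc21, Ifitm6, Cd300ld, Stfa2l1, Reck, Anxa1, Mxd3, Plin3, Abhd5 and Pnpla2, and AT-3 calls for Cd177, Wfdc21, Ifitm6, Cxcl2, Hcar2, Treml4, Trem2, Mxd3, Pnpla2 and Dusp6. The 5 were AT-3 minus KO with no scaling for Tyrobp (-0.848), Pnpla2 (-1.004), Hrh2 (-0.99), Mlxip (-1.101) and Gpr107 (-1.055), values near that shift of all features. In KO minus wild type, 2 genes were called higher, against 0 with equal medians, 4 with averaged probes, 1 with only the arrays compared and 1 with the replicate block, and the median of 0.155 became -0.241 with equal medians. In AT-3 minus wild type, 1 was called higher, against 2 with no background correction, an offset of 50, the authors' log2 values, equal medians, only the arrays compared or the trended robust prior, and 0 with no scaling or no filter. With no scaling 5 rather than 2 were called lower and the median was -1.033. In AT-3 minus KO, 4657 features were called with equal medians, 7085 with no scaling and 607 with only the arrays compared (2851 at an unadjusted p under 0.05), against 1436. Equal medians gave 1 gene higher, 1 lower and a median of 0.194, no scaling gave 6 lower and a median of -1.016, and 1 was lower with no filter, 0 with only the arrays compared and 1 with the replicate block. Where no value shows it, the cause was not tested.

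Leaving out 1 array gave 1541 to 4316 features called in KO minus wild type (3990 with all arrays), 1531 to 4987 in AT-3 minus wild type (4360) and 442 to 1596 in AT-3 minus KO (1436). Genes called higher numbered 0 to 3, 0 to 2 and 0 to 0, genes called lower 0 to 3, 1 to 3 and 0 to 3, and medians lay between -0.048 and 0.358, -0.343 and -0.15, and -0.624 and -0.133. The lowest counts came without a wild-type array in the comparisons with wild type and without AT-3 array 2 in the third.

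Same-numbered arrays did not deviate together (correlations of deviations 0.0859 for wild type and KO, -0.0552 for wild type and AT-3, 0.0074 for KO and AT-3), so the numbers were not treated as pairs. Apart from the counts above, the replicate block moved no count of calls by over 1.5 times. The comparison of protein sequences between the genes was not run, since no protein sequences were used here.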
